A study of Caenorhabditis elegans with 6 samples.

Results

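The genes described here build and drive the actomyosin cortex of the embryo. They are act-1, act-2, act-3, act-4, nmy-2, mlc-4, ect-2, let-502, cyk-1 and ani-1, which are 10 of the 46646 genes in the count table, of which 9268 had a read in any library. They were chosen by symbol, for what their products do, and each was taken once at its gene identifier. The deposited table holds the reads counted per gene in iCLIP (crosslinking and immunoprecipitation) libraries of mixed early embryos of Caenorhabditis elegans. In iCLIP, RNA and the protein bound to it are joined by ultraviolet light, the protein is pulled down through its tag, and the linked RNA is sequenced. There were 3 groups of 2 libraries. In the MEG-3::GFP group the meg-3 gene carried the tag at its own locus, and the study lists the strain as meg-3(ax3054[meg-3::meGFP]) X. In the PGL-1::GFP group pgl-1 was tagged at its own locus, in a strain listed as pgl-1(ax3122[pgl-1::GFP]) IV. The control embryos expressed GFP alone from a transgene under the pie-1 promoter, which drives expression in the maternal germ line, in an unc-119(ed3) III background. So the control GFP was not made from the locus of either tagged protein. All worms were grown at 20 °C on NA22 bacteria, and all embryos received 3 exposures of 400 mJ/cm2 before the anti-GFP pulldown. The labels call the second library of each pair a replicate and do not say whether it came from a separate culture. The study calls its 2 MEG-3::GFP iCLIP experiments independent. Every test below thus measures the spread between these libraries.

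The cortex of the early embryo is a thin network of actin filaments and nonmuscle myosin II under the plasma membrane. The exchange factor ECT-2 stands at the head of the signalling that makes the cortex contract. The formin CYK-1 nucleates and lengthens actin filaments, and the kinase LET-502 promotes phosphorylation of the myosin regulatory light chain MLC-4. The heavy chain NMY-2 pulls on the filaments, and anillin, the product of ani-1, links actin, myosin and septins. The same machinery drives the cortical flow that polarizes the zygote and forms the contractile ring of cytokinesis. MEG-3 and PGL-1 are proteins of P granules, the RNA-rich bodies of the germ lineage. MEG-3 belongs to the gel phase of the granule and PGL-1 to its liquid phase. The question for these mRNAs was whether they were recovered with either protein above the level in the GFP control.

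The libraries differed in depth by a factor of 19.9. MEG-3::GFP replicates 1 and 2 held 225609 and 280007 reads, those of PGL-1::GFP 21180 and 92593, and those of GFP 26531 and 14040. Pairs of values below keep this order of replicates. Levels are given in CPM, the reads of a gene per 1000000 reads of its library. Where a gene had 0 reads, the count allows for as many as 3, a limit of 13.3 and 10.7 CPM for MEG-3::GFP replicates 1 and 2, of 142 and 32.4 CPM for the PGL-1::GFP pair and of 113 and 214 CPM for the GFP pair. These limits, and the 95% intervals given for shares and ratios, cover counting error only. Of 10 maternal early embryo markers, all 10 had a read in every library except PGL-1::GFP replicate 1 (8 genes) and GFP replicate 2 (5 genes). Of 8 intestine markers, 1 had 1 read in PGL-1::GFP replicate 2 and the rest were at 0 throughout. Of the tagged genes, meg-3 had 1986 and 635 reads with MEG-3::GFP against 8 and 0 with GFP, and pgl-1 had 53 and 24 with PGL-1::GFP against 0 in both GFP libraries. The GFP libraries carry names of another series than the tagged libraries, and if that marks a batch, batch and control cannot be told apart. A level in these libraries depends both on how much of an mRNA the embryos held and on how much of it was crosslinked, which cannot be told apart here, as fewer cells of a type and less RNA per cell cannot.

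In the MEG-3::GFP libraries recovery of the cortex mRNAs ranged from 0 to 305 reads. The study set its background at 60 reads, a level drawn from the GFP libraries. At this level in both MEG-3::GFP libraries stood 4 of the 10 genes (40%), namely act-2, nmy-2, ect-2 and ani-1, beside 7.09% of the 9268 genes with a read. In PGL-1::GFP 0 of the 10 reached 60 reads in both libraries, beside 0.194% of those genes, and 1 did so in replicate 2 (act-4, 71 reads). The study also ranked genes by reads and took F35G2.1, at rank 388 in MEG-3::GFP replicate 1, as its rank limit for P granule transcripts. All 4 genes at the threshold ranked 388 or better in at least 1 of the MEG-3::GFP libraries, beside 62.4% of the 657 genes at the threshold (410 genes). These ranks were taken here from the deposited counts. The study's own set of P granule transcripts is larger than 410, so this share does not reproduce it. The 60-read level depends on depth. It equals 266 CPM for MEG-3::GFP replicate 1, 214 for MEG-3::GFP replicate 2 and 2833 for PGL-1::GFP replicate 1. No member exceeded 1352 CPM in any library. The 0 of 10 with PGL-1::GFP thus followed from depth and does not tell the proteins apart. With every library scaled to the median total of 59562 reads, act-2 alone reached 60 in both MEG-3::GFP libraries. On that scale 0 members did so in both PGL-1::GFP libraries. At 100 unscaled reads with MEG-3::GFP it was again act-2 alone, and at 30 reads act-3 joined the 4.

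**Figure D1:**
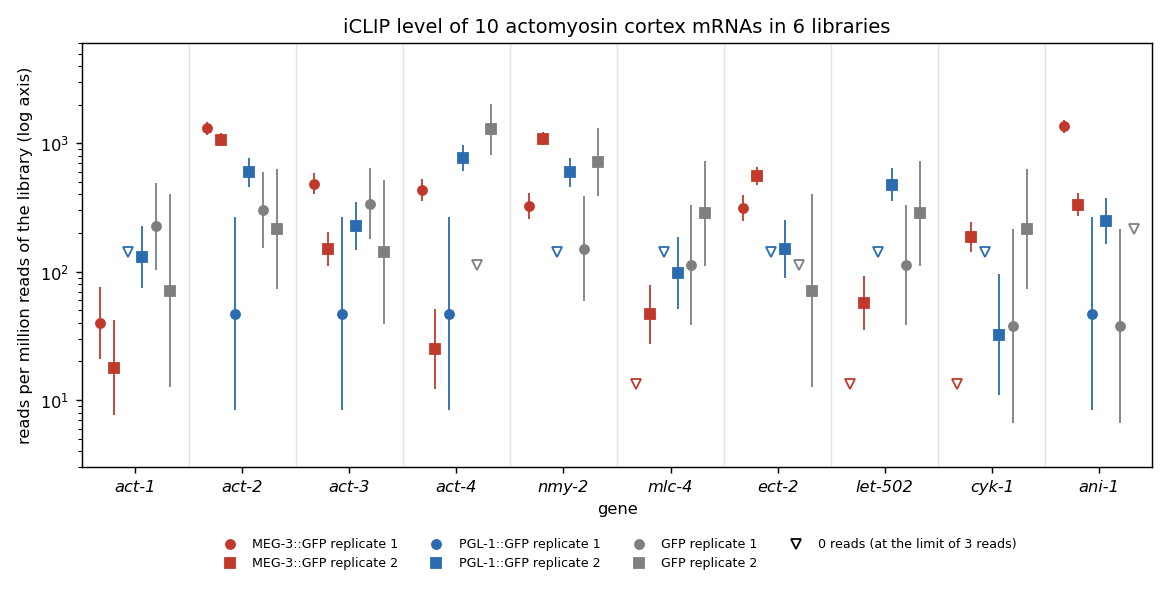
CPM (log axis) for the 10 cortex genes, with 95% Wilson intervals; colours mark the groups, circles replicate 1 and squares replicate 2, and open triangles stand at the 3-read limit of libraries with 0 reads. Both MEG-3::GFP libraries lie above every PGL-1::GFP and GFP library that had a read for act-2, ect-2 and ani-1, while mlc-4, let-502 and cyk-1 had 0 reads in MEG-3::GFP replicate 1.

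The actins supply the filaments. The genes act-1, act-2 and act-3 lie side by side on chromosome V (act-3 at 11071690 to 11073264, act-2 at 11076777 to 11078154 and act-1 at 11081052 to 11082415 in the RefSeq annotation of WBcel235), and act-4 lies on chromosome X at 4960621 to 4964413. Their coding sequences are nearly identical, so short reads can fit more than 1 of them. The sources used here do not say how the authors counted such reads, and the split between the actin genes is therefore uncertain.

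Of the cortex genes, act-2 was the most evenly recovered with MEG-3::GFP. It had 296 and 299 reads with MEG-3::GFP, 1 and 55 with PGL-1::GFP, and 8 and 3 with GFP. This was 1312 and 1068 CPM with MEG-3::GFP, 47.2 and 594 with PGL-1::GFP, and 302 and 214 with GFP. Both MEG-3::GFP libraries lay above all 4 others, and the 2 differed from each other by a factor of 0.814 (replicate 2 over replicate 1, interval 0.691 to 0.959). The gene ranked 108 and 130 among all rows of the table in the MEG-3::GFP libraries. At the mean MEG-3::GFP level of 1189.9 ± 173 CPM (SD, n = 2), GFP replicate 1 would have held 31.6 reads of act-2 and GFP replicate 2 16.7.

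The other actins were less even. For act-3 the reads were 109 and 42 with MEG-3::GFP, 1 and 21 with PGL-1::GFP, and 9 and 2 with GFP. The level of act-3 was 483 and 150 CPM with MEG-3::GFP and 339 and 142 with GFP, so these groups overlapped. The reads of act-1 were few everywhere, 9 and 5 with MEG-3::GFP, 0 and 12 with PGL-1::GFP, and 6 and 1 with GFP. The reads of act-4, which is strongly expressed in body wall muscle, came almost wholly from 1 library in each group. It had 98 and 7 reads with MEG-3::GFP, 1 and 71 with PGL-1::GFP, and 0 and 18 with GFP. Between the MEG-3::GFP libraries act-4 differed 17.4-fold (replicate 1 over replicate 2, interval 8.12 to 44.4), and GFP replicate 2 was at least 11.3-fold higher than GFP replicate 1, taking 3 reads as the limit in the latter.

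The share of actin reads held by each gene differed between libraries. In MEG-3::GFP act-2 held 57.8% of 512 actin reads in replicate 1 (interval 53.5 to 62.0%) and 84.7% of 353 in replicate 2 (80.6 to 88.1%). In PGL-1::GFP replicate 2 it held 34.6% of 159, and with GFP 34.8% of 23 and 12.5% of 24. The share of act-2 was thus higher in both MEG-3::GFP libraries than in these 3, and PGL-1::GFP replicate 1, with 3 actin reads, gave no usable share. The largest part of the actin reads was act-4 in PGL-1::GFP replicate 2 (44.7%) and GFP replicate 2 (75%, 55.1 to 88.0%). Summed over the 4 actins, the level was 2269 and 1261 CPM with MEG-3::GFP, 142 and 1717 with PGL-1::GFP, and 867 and 1709 with GFP. Unless reads shared by several actins were dropped, the sum does not depend on how they were split among the 4. It overlapped between all 3 groups. Without act-4 the sum was 1835 and 1236 with MEG-3::GFP, 94.4 and 950 with PGL-1::GFP, and 867 and 427 with GFP, and there both MEG-3::GFP libraries lay above the other 4. Unlike the sum over the 4 actins, this one depends on how reads shared with act-4 were split. With MEG-3::GFP, act-2 held 296 of its 414 reads in replicate 1 and 299 of its 346 in replicate 2.

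Markers of muscle moved with act-4 in some libraries. Summed over 12 muscle genes the level was 4.43 and 118 CPM with MEG-3::GFP, 0 and 886 with PGL-1::GFP, and 528 and 3348 with GFP, with a read in 1, 5, 0, 10, 2 and 5 of the 12 genes. The muscle sum and the level of act-4 were both highest in GFP replicate 2. There unc-54, the body wall muscle myosin heavy chain, had 27 of the 47 muscle reads, and mup-2, a troponin T, had 17. Of the other muscle genes, myo-3, mlc-1 and lev-11 had 1 read each in that library and the rest had 0. In MEG-3::GFP replicate 1, with 98 reads of act-4, the 12 muscle genes had 1 read in all, and the pharyngeal myosin gene myo-2 was at 0 in every library. The part of muscle RNA in the act-4 level was not tested.

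Nonmuscle myosin II is made of the heavy chain, encoded by nmy-2 on chromosome I, and light chains including that of mlc-4 on chromosome III. The heavy chain mRNA had 73 and 305 reads with MEG-3::GFP, 0 and 55 with PGL-1::GFP, and 4 and 10 with GFP. The nmy-2 level was 324 and 1089 CPM with MEG-3::GFP, 0 and 594 with PGL-1::GFP, and 151 and 712 with GFP, and the 3 groups overlapped. Replicate 2 was the higher library in each group. It exceeded replicate 1 3.37-fold with MEG-3::GFP (interval 2.60 to 4.41) and 4.72-fold with GFP (1.36 to 20.6). Although nmy-2 passed the threshold with MEG-3::GFP, its CPM in MEG-3::GFP replicate 1 was below that in GFP replicate 2, which had 10 reads. For mlc-4 the reads were 0 and 13 with MEG-3::GFP, 0 and 9 with PGL-1::GFP, and 3 and 4 with GFP. The 7 reads in the GFP libraries amount to 113 and 285 CPM, above the 46.4 of MEG-3::GFP replicate 2.

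Of the members that regulate the cortex by signalling, ect-2 lay above the control with MEG-3::GFP in both libraries and let-502 below it. The exchange factor gene ect-2 (chromosome II, 10778389 to 10783296) had 71 and 156 reads with MEG-3::GFP, 0 and 14 with PGL-1::GFP, and 0 and 1 with GFP. Its level with MEG-3::GFP was 315 and 557 CPM, against 0 and 151 with PGL-1::GFP and 0 and 71.2 with GFP, without overlap. At its mean MEG-3::GFP level of 436 ± 171, 11.6 reads would have been counted in GFP replicate 1 and 6.12 in GFP replicate 2. The kinase gene let-502 had 0 and 16 reads with MEG-3::GFP, 0 and 44 with PGL-1::GFP, and 3 and 4 with GFP. The let-502 level was 0 and 57.1 CPM with MEG-3::GFP, 0 and 475 with PGL-1::GFP, and 113 and 285 with GFP. Both MEG-3::GFP libraries thus lay below both GFP libraries for let-502, although the GFP values rest on 7 reads. Within PGL-1::GFP replicate 2 let-502 ranked 358, and in MEG-3::GFP replicate 2 it ranked 3352.

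Most reads of the formin gene cyk-1 came from 1 library. It had 0 and 52 reads with MEG-3::GFP, 0 and 3 with PGL-1::GFP, and 1 and 3 with GFP. Replicate 2 of MEG-3::GFP was at least 14.0-fold above replicate 1. Its 186 CPM in MEG-3::GFP replicate 2 were below the 214 of GFP replicate 2, which came from 3 reads.

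Anillin mRNA had the largest fitted difference from the GFP control among the members tested, given below. The gene ani-1 (chromosome III, 12446353 to 12453202) had 305 and 93 reads with MEG-3::GFP, 1 and 23 with PGL-1::GFP, and 1 and 0 with GFP. The ani-1 level was 1352 and 332 CPM with MEG-3::GFP, 47.2 and 248 with PGL-1::GFP, and 37.7 and 0 with GFP. Every MEG-3::GFP library exceeded every PGL-1::GFP library. Both PGL-1::GFP values exceeded those of GFP, but PGL-1::GFP replicate 1 had 1 read, as GFP replicate 1 did in a deeper library, and lay below the limit of 214 CPM that a count of 0 allows in GFP replicate 2. At the mean MEG-3::GFP level of ani-1, 842 ± 721, GFP replicate 1 would have held 22.3 reads and GFP replicate 2 11.8, where 1 and 0 were counted. The MEG-3::GFP libraries themselves differed 4.07-fold (replicate 1 over replicate 2, interval 3.22 to 5.19). The rank of ani-1 was 101 in replicate 1 and 774 in replicate 2. For 3 members more GFP reads were counted than the mean MEG-3::GFP level would give, in both GFP libraries. These were let-502 (0.76 and 0.40 expected, 3 and 4 counted), mlc-4 (0.62 and 0.33, 3 and 4) and act-1 (0.77 and 0.41, 6 and 1). For act-3, act-4, nmy-2 and cyk-1 the GFP libraries went opposite ways.

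**Figure D2:**
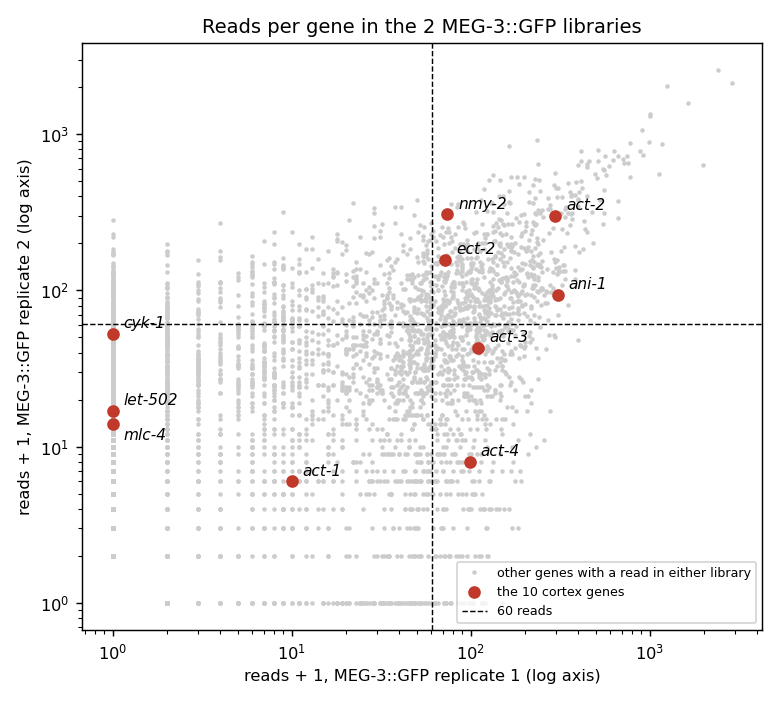
Reads plus 1 per gene in MEG-3::GFP replicate 1 (x, log axis) and replicate 2 (y, log axis); red points are the 10 cortex genes, grey points all other genes with a read in either library, and dashed lines mark 60 reads. Only act-2, nmy-2, ect-2 and ani-1 of the cortex genes lie past both lines, and cyk-1, let-502 and mlc-4 lie at 0 reads in replicate 1.

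The spread between the MEG-3::GFP replicates exceeded counting error for most of these genes. All 6 members with 60 reads in either library (act-2, act-3, act-4, nmy-2, ect-2 and ani-1) had a ratio between replicates whose interval excluded 1, and so did 86.4% of the 1754 genes of that depth. Of these 6, act-2, act-3, act-4 and ani-1 were higher in replicate 1, and nmy-2 and ect-2 in replicate 2. The remaining members with reads only in replicate 2 were cyk-1, let-502 and mlc-4, at least 14.0-fold, 4.30-fold and 3.49-fold higher there. Over the 10 genes, which share both libraries, Spearman's rho between the replicates was 0.40.

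Adjusted for gene length, act-2 led the members with MEG-3::GFP. CPM per kilobase of the annotated gene, introns included, were 864 ± 125 for act-2 (SD, n = 2), 201 ± 150 for act-3, 123 ± 105 for ani-1, 88.8 ± 34.9 for ect-2 and 88.8 ± 68.1 for nmy-2. Lower on this scale were act-4 (60.6 ± 76.3), act-1 (21.2 ± 11.4), mlc-4 (18.2 ± 25.8), cyk-1 (16.7 ± 23.6) and let-502 (4.64 ± 6.57). The gap between act-2 and act-3 was larger than their SDs together. From act-3 down to let-502 each neighbouring pair differed by less than the larger of its SDs. In GFP the order was another one, with act-2 (187 ± 45.1), act-4 (169 ± 239), mlc-4 (156 ± 95.4) and act-3 (153 ± 88.3) at the top and ani-1 (2.75 ± 3.89) at the bottom.

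Together the 10 genes stood between 3276 and 4260 CPM in 4 of the 6 libraries. Their sum was 4260 and 3529 CPM with MEG-3::GFP (961 and 988 reads), 189 and 3316 with PGL-1::GFP (4 and 307 reads), and 1319 and 3276 with GFP (35 and 46 reads). Group means were 3894 ± 517, 1752 ± 2211 and 2298 ± 1384 (SD, n = 2). Both MEG-3::GFP values were the highest of the 6, by less than the spread within PGL-1::GFP or GFP. In PGL-1::GFP replicate 1 the members held 4 reads, with a read in 4 of the 10 genes. The 44 other cortex genes listed below held 287 reads in that library, with a read in 17 of the 44. Of these 287 reads, 75 were of plst-1 and 66 of mlc-5. Actins made up 53.3 and 35.7% of the members' reads with MEG-3::GFP, 75 and 51.8% with PGL-1::GFP, and 65.7 and 52.2% with GFP. The composition of the remainder also shifted, with nmy-2 at 16.3 and 48.0% of the reads of the 6 non-actin members in the MEG-3::GFP libraries.

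**Figure D3:**
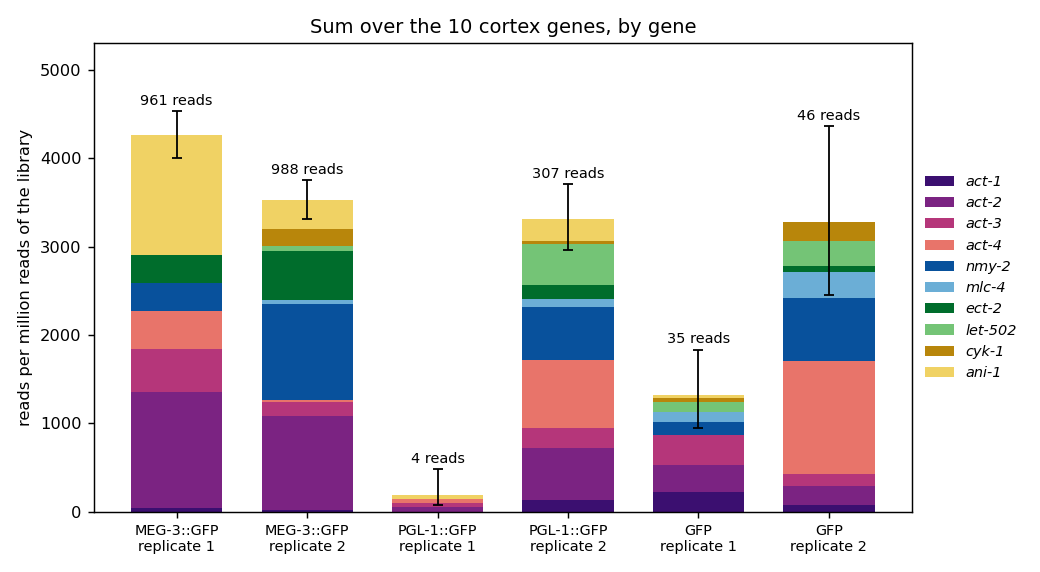
Stacked bars give CPM for each of the 10 cortex genes in each library, and black bars the 95% Wilson interval of the sum, with the number of reads above. The sums of 4260 and 3529 with MEG-3::GFP lie beside 3316 and 3276 in replicate 2 of PGL-1::GFP and GFP, but with another composition, and PGL-1::GFP replicate 1 holds 4 reads.

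Differences between groups were tested with edgeR's quasi-likelihood test over the 2033 genes that passed its filter on low counts. Of the members 8 entered the test, and act-1 and mlc-4 had too few reads. On simulated counts at the dispersion estimated here, the test recovered no gene changed 8-fold in MEG-3::GFP over GFP. A lack of edgeR calls below therefore does not show a lack of difference. With MEG-3::GFP against GFP, the largest fitted increases among the members, as log2 fold changes, were 5.13 for ani-1 (SE 3.12, unadjusted p = 0.100), 3.80 for ect-2 (SE 3.21) and 2.19 for act-2 (SE 2.44). None of the 8 passed an adjusted p of 0.05 in edgeR (lowest 1.00 after rounding), and neither did any other gene (lowest 0.623), so that 0% of the 2033 were called. Without adjustment, 65 genes and 0 members had a p under 0.05, and DESeq2 called 44 genes and 0 of the 7 members that it gave an adjusted p. The fold change of ani-1 rests on 1 read in the GFP libraries and that of ect-2 likewise on 1.

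For the other members the log2 fold change was 0.77 for nmy-2 (SE 2.41), 0.33 for act-3 (SE 2.56), -0.32 for cyk-1 (SE 3.64), -1.54 for act-4 (SE 2.46) and -2.65 for let-502 (SE 2.92). The median over the 8 was 0.55, beside 0.39 over all genes tested, and 5 of the 8 were above 0, beside 58.5% of all. The 2 members left out by the filter lay below 0 in a fit with no filter, act-1 at -1.988 and mlc-4 at -2.365. In that fit the median over all genes was 0.071. The sign of act-4, act-3, nmy-2 and cyk-1 turned when single libraries were left out. Without GFP replicate 2 the log2 fold change was 7.76 for act-4, -0.04 for act-3 and 1.56 for cyk-1, without PGL-1::GFP replicate 1 it was 0.24 for cyk-1, and without MEG-3::GFP replicate 2 nmy-2 was at -0.09.

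Non-overlapping CPM values give the same contrast without a model. For 3 of the 8 tested members, act-2, ect-2 and ani-1, each MEG-3::GFP library exceeded each GFP library (37.5%), beside 28.6% of the genes tested. For let-502 the order was opposite (1 of 8), beside 10% of genes. The opposite order also held for act-1 and mlc-4, which the filter left out. The act-1 level was 39.9 and 17.9 CPM with MEG-3::GFP against 226 and 71.2 with GFP, on 6 and 1 GFP reads. That of mlc-4 was 0 and 46.4 with MEG-3::GFP against 113 and 285 with GFP, on 3 and 4 GFP reads. Members that failed the filter did so for lack of reads in every group, so the count over the 8 is a description of those that passed.

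No member passed the test between PGL-1::GFP and GFP. The log2 fold changes of PGL-1::GFP over GFP were 2.95 for ani-1 (SE 2.98), 1.66 for ect-2, 0.62 for let-502, 0.61 for act-2, -0.18 for nmy-2, -0.33 for act-4, -0.56 for act-3 and -2.38 for cyk-1. All 8 were smaller than their standard errors, and in edgeR 0 of the 8, and 0% of all genes, passed the adjusted threshold. Without adjustment, 16 genes and 0 members had a p under 0.05, and DESeq2 called 0. The median was 0.22, beside 0.00 over all genes tested. With no filter, act-1 was at -0.644 and mlc-4 at -1.246, beside a median of 1.108 over all genes of that fit. Levels did not overlap for ani-1, higher in both PGL-1::GFP libraries (beside 6.74% of genes), and for cyk-1, higher in both GFP libraries (beside 10.5%). Left out by the filter, mlc-4 was likewise higher in both GFP libraries (0 and 97.2 CPM with PGL-1::GFP, 113 and 285 with GFP). These orders rest on 0 to 3 reads in at least 1 library of each group. They were not detectable beyond the limit of a count of 0.

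MEG-3::GFP against PGL-1::GFP shares its MEG-3::GFP libraries with the first contrast. Fitted log2 fold changes were 2.18 for ani-1, 2.14 for ect-2, 2.06 for cyk-1, 1.58 for act-2, 0.95 for nmy-2, 0.89 for act-3, -1.21 for act-4 and -3.27 for let-502 (SE 2.93). In edgeR 0 of the 8 members and 0% of the genes tested passed the adjusted threshold, with 36 genes and 0 members at an unadjusted p under 0.05. DESeq2 called 2 genes, neither a member, and gave an adjusted p for 3 of the 8. The median was 1.26, beside 0.50 over all genes. With no filter, act-1 was at -1.344 and mlc-4 at -1.119, beside a median of -0.38 over all genes of that fit. Both MEG-3::GFP libraries exceeded both PGL-1::GFP libraries at act-2, ect-2 and ani-1 (3 of 8, beside 29.4% of genes), and for 0 of the 8 was the order opposite (5.26%).

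**Figure D4:**
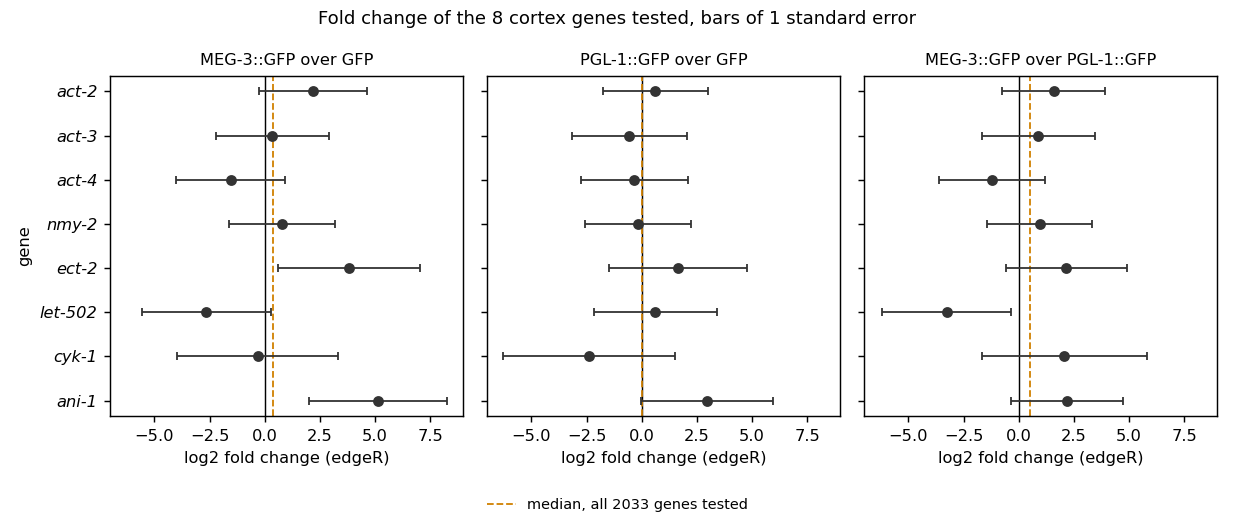
Points are log2 fold changes from edgeR for the 8 cortex genes tested in each of the 3 contrasts, with bars of 1 standard error, and the dashed line is the median over all 2033 genes tested. In MEG-3::GFP over GFP the bars of ani-1 (5.13) and ect-2 (3.80) clear 0, and in PGL-1::GFP over GFP no point is farther from 0 than its standard error.

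Other genes of cortex and cytokinesis, 44 in 6 lists of actin, myosin, signalling, actin assembly, scaffold and central spindle genes, were read in the same libraries. In MEG-3::GFP 11 of the 44 reached 60 reads in both libraries, beside 7.09% of genes with a read and 8 of the 10 maternal markers. The sum over the 44 was 11715 and 11500 CPM with MEG-3::GFP, 13551 and 9504 with PGL-1::GFP, and 14247 and 5057 with GFP, so that the groups overlapped. None of the 23 that could be tested passed the adjusted threshold of edgeR in any contrast, and their median log2 fold change with MEG-3::GFP over GFP was 0.67, beside 0.39 over all genes tested. Among relatives of the members, act-5, an intestinal actin, had 0 and 1 reads with MEG-3::GFP, 0 and 4 with PGL-1::GFP, and 1 and 0 with GFP. The second nonmuscle myosin heavy chain gene, nmy-1, had 0 and 10 with MEG-3::GFP, 0 and 30 with PGL-1::GFP, and 1 and 0 with GFP. The myosin light chain gene mlc-5 had 147 and 24 with MEG-3::GFP, 66 and 7 with PGL-1::GFP, and 4 and 4 with GFP. Its level was 652 and 85.7 CPM with MEG-3::GFP, 3116 and 75.6 with PGL-1::GFP, and 151 and 285 with GFP. The anillin relative ani-2 is given with the scaffolds.

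The GTPase gene cdc-42 had 133 and 60 reads with MEG-3::GFP, 17 and 37 with PGL-1::GFP, and 40 and 10 with GFP. Unlike ect-2, it was read in each of the control libraries. Its log2 fold change over GFP was -1.50 (SE 2.31).

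Branched actin assembly was covered by genes of the Arp2/3 complex (arx) and of the WAVE complex that activates it (gex-2, gex-3 and abi-1). In both MEG-3::GFP libraries arx-2 (106 and 159 reads), arx-3 (100 and 93), gex-2 (135 and 69), gex-3 (238 and 97) and abi-1 (139 and 144) reached 60 reads. The Arp2/3 subunit genes arx-2 and arx-3 had 12 and 10 reads in GFP replicate 1 and 0 in GFP replicate 2. The ADF/cofilin gene unc-60, whose product severs filaments, had 144 and 510 reads with MEG-3::GFP and 48 and 4 with GFP. It also had 66 reads in PGL-1::GFP replicate 2. In all, 6 of the 19 genes of actin assembly reached 60 reads in each MEG-3::GFP library, beside the same 7.09%. The other 5 arx genes and the WAVE and WASP genes wve-1 and wsp-1 did not.

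Scaffolds and cross-linkers held the highest share of genes at the threshold among the 6 lists, 4 of 9 with ani-1, beside the same 7.09%. The anillin relative ani-2 had 347 and 483 reads with MEG-3::GFP, 3 and 55 with PGL-1::GFP, and 19 and 1 with GFP. Filamin (fln-1) had 159 and 150 with MEG-3::GFP and 2 and 0 with GFP, and plastin (plst-1) had 174 and 175 with MEG-3::GFP and 19 and 2 with GFP. In PGL-1::GFP replicate 1 plst-1 had 75 reads. Over GFP, the fitted log2 fold change with MEG-3::GFP was 3.82 for fln-1 (SE 2.87), 2.03 for ani-2 (SE 2.28) and 0.67 for plst-1 (SE 2.17). Of the 7 central spindle and chromosomal passenger genes 0 reached 60 reads in both MEG-3::GFP libraries and 1 did in either.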

How the data were processed

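The authors removed adaptors and randomized barcodes, aligned reads to the ws235 genome (HISAT2 2.1.0 per the submitters' processing notes), removed PCR duplicates and counted reads per gene with HTSeq. The deposited values are raw counts. The treatment of multiply mapped reads and of strand is not given in the sources used here, so reads of near-identical, overlapping or antisense genes cannot be told apart. Of 47085 rows, 438 identifiers stood on several rows with equal counts and were used once. Totals ran from 14040 to 280007 reads, and levels are counts per 1000000 reads of these sums (CPM). Intervals for shares and levels are Wilson intervals, and those for ratios of replicates are exact conditional binomial intervals, all at 95%.

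Groups were compared by the quasi-likelihood test of edgeR 4.0.16 under R 4.3.3 (TMM, default filter, Benjamini-Hochberg, adjusted p under 0.05) in 1 fit of all 6 libraries. The standard error is the absolute log2 fold change over the square root of F. DESeq2 1.42.0, library totals, no filter, fits of 4 libraries, each library left out, a replicate block and other read thresholds were alternatives. On simulated counts for the 2033 genes with 200 changed 8-fold in MEG-3::GFP over GFP, the test recovered 190 at a dispersion of 0.1 and 0 at the 1.91 estimated here. Tables were handled with Python 3.11.15 and pandas 2.3.3, and plots with matplotlib 3.10.9.

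Gene positions came from the RefSeq annotation of WBcel235, where all 86 listed genes matched. The members and the 9 gene lists were chosen with earlier results of these data known. Named are all members, meg-3, pgl-1, act-5, nmy-1 and list genes that reached 60 reads in each MEG-3::GFP library or in any PGL-1::GFP or GFP library. Among the markers, unc-54, mup-2, myo-2, myo-3, mlc-1 and lev-11 were named after their values were seen. The maternal markers are given as counts, and a further result under this rule is not reported here. Sequences were not used here.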

Additional observations from a re-analysis of the deposited data

How the results depend on the processing

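Depth and the spread between 2 libraries a group limit these results: a gene absent from GFP replicate 2 may have a level of up to 214 CPM. Over leaving out each library, chosen after seeing the data for the read threshold, 4 to 6 members reached 60 reads in MEG-3::GFP and 0 to 1 in PGL-1::GFP. Members at the threshold in MEG-3::GFP numbered 6 at 60 reads in either library, 5 at 30 reads, 1 at 100 reads and 1 after scaling to the median total. In PGL-1::GFP, 60 reads in either library gave 1. The deposited columns are numbered, but nothing ties libraries of 1 number together, and the second-minus-first differences of the groups correlated at 0.05, -0.05 and 0.19 over 2033 genes. With that number as a replicate block, chosen after seeing the data, 0 genes were called in each contrast. The log2 fold change of act-4 then was 1.76 for MEG-3::GFP and 0.031 for PGL-1::GFP, each over GFP, and 1.73 between the fusions, and that of let-502 was -1.68 for PGL-1::GFP over GFP.

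Genes called in MEG-3::GFP over GFP numbered 44 with DESeq2 and 2 in the fit of only the 4 libraries compared, and DESeq2 called 2 where MEG-3::GFP was compared with PGL-1::GFP, with 0 members in each case. The other fits, and each fit that left out 1 library, called 0 in all 3 contrasts. Of 24 fold changes of members, 12 kept their sign under every alternative fitted, among them ani-1 in all 3 contrasts. Not every member passed the filter in every fit. Without MEG-3::GFP replicate 1, where ani-1 had 305 reads against 93 in replicate 2, ani-1 was not fitted, nor was act-3. For ect-2 the fit without MEG-3::GFP replicate 2 was missing, and for let-502 that without PGL-1::GFP replicate 2. For cyk-1 the fits without MEG-3::GFP replicate 1, MEG-3::GFP replicate 2 and PGL-1::GFP replicate 2 were missing. In MEG-3::GFP over GFP nmy-2 was at -0.062 with DESeq2 and cyk-1 at 0.31 with no filter, and in PGL-1::GFP over GFP with no filter act-4 was at 0.18 and nmy-2 at 0.25. The cause was not tested. Each library was left out in turn, and a range covers only the fits in which the member passed the filter. These were 5 for act-3 and ect-2, 3 for cyk-1 and 6 for act-2, act-4 and nmy-2. For MEG-3::GFP over GFP the log2 fold changes were -0.04 to 1.82 for act-3, -3.43 to 7.76 for act-4, -0.086 to 2.44 for nmy-2 and -0.19 to 1.56 for cyk-1. For PGL-1::GFP over GFP the ranges were -2.58 to 1.68 for act-2, -2.51 to 0.58 for act-3, -3.75 to 8.88 for act-4, -8.41 to 1.32 for nmy-2 and -4.66 to 6.56 for ect-2. For MEG-3::GFP over PGL-1::GFP they were -4.13 to 2.42 for act-4 and -0.46 to 9.41 for nmy-2. Leaving out GFP replicate 1 moved the median of all genes in MEG-3::GFP over GFP to 5.70, and leaving out PGL-1::GFP replicate 2 moved that in PGL-1::GFP over GFP to -5.76.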
